A study of Arabidopsis thaliana with 10 samples.

Results

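Transcripts with a level at 2 h after release from an aphidicolin block below that of every other sampled time were described. The cells were Arabidopsis thaliana MM2d cells. A probe set (the group of short probes that reads 1 transcript) was a member when its mean signal over the 9 other times was 60 or more and its level at 2 h lay at least 1 log2 unit below its level at each of those times. Signals under 12 were set to 12 before log2 was taken, and genes of the plastid genome were left out. Of 22746 probe sets without controls, 9380 had enough signal to be considered, and 177 of these were members, which is 1.89%. Of the 177, 89 named 1 gene (88 different genes), 1 named several genes and 87 had no gene listed in the annotation used.

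MM2d cells divide fast in suspension, here in a medium that held an auxin and a cytokinin. Cells of an early stationary culture were diluted into fresh medium and held for 24 h with aphidicolin, an inhibitor of replicative DNA polymerases, then washed free of the drug and returned to fresh medium in the dark. Samples came at 0 h (directly after the wash), 2, 4, 6, 8, 10, 12, 14, 16 and 19 h, with 1 ATH1 array and no replicate at each time. Every sample had been through the block and the wash, so no group shows cells without them, and the 0 h sample had been washed as well.

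The level of a transcript reflects both how fast it is made and how fast it is lost, so a short-lived RNA can fall and return within hours of a change of medium. Suspension cells that are washed and resuspended meet a new medium and mechanical handling at the same time as the cell cycle starts again. Dividing plant cells also extend and rebuild their walls, a process that uses glucan synthases, expansins and wall peroxidases and is monitored by receptor kinases at the plasma membrane. In a bulk sample such as this, fewer cells with a transcript and less of it per cell cannot be told apart.

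The members were chosen by their signals at all 10 times, with the 2 h signal set against the rest, so the dip is given as a description without a test. The members' median signal was 131 at 0 h, 36.6 at 2 h, 117 at 4 h and 145 at 6 h, and it stayed between 129 and 148 from 8 h to 19 h. At 2 h the median member stood 3.41-fold under the mean of its 0 h and 4 h levels on the log2 scale, and 2.47-fold under its lowest other time. The depth, taken as the lowest other time minus 2 h, ran from 1.00 to 3.85 log2 units, with 61 members at 1.5 or more, 20 at 2 or more and 2 at 3 or more. The deepest member, at 3.85, has no gene listed. At 2 h, 19 members had a signal under 12, and their depth is a lower bound.

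**Figure D1:**
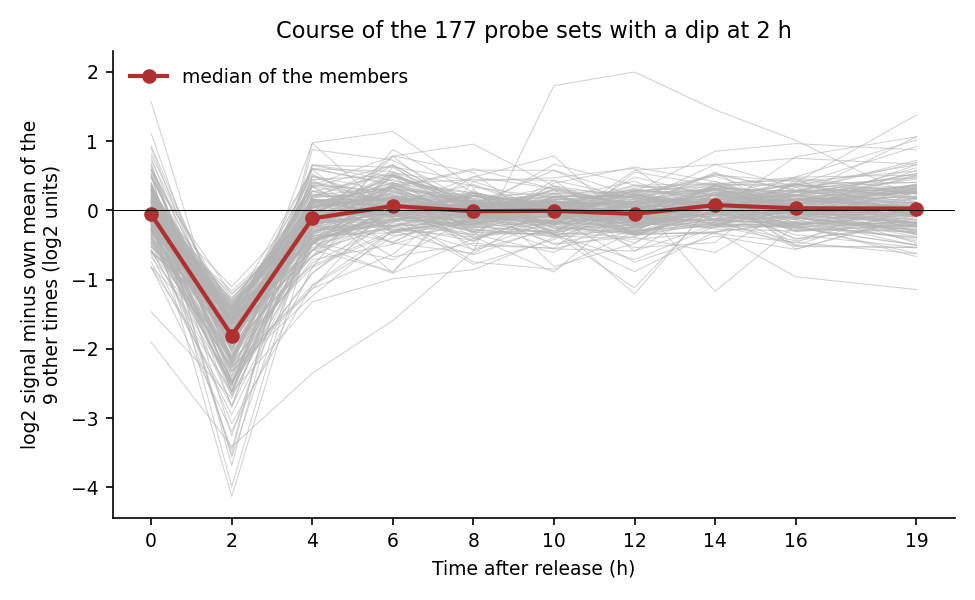
Course of each of the 177 members (grey lines) and their median (red line with points) over the 10 sampled times. The vertical axis is the log2 signal minus the member's own mean over the 9 other times. The low point of every member at 2 h is set by the rule, and most are near 0 on this axis at 4 h.

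The same rule was run with every other time in the place of 2 h. It found 8 probe sets at 0 h, 17 at 4 h and 21 at 6 h, and between 0 and 2 at each time from 8 h to 19 h, against 177 at 2 h. The opposite rule, at least 1 log2 unit above every other time, kept the limit of 60 on the mean of the other times. It thus left out rises from a lower level. It found 141 probe sets at 2 h, 37 at 0 h, 1 at 4 h, 1 at 6 h and 0 at each time from 8 h to 19 h. The 2 h array also had the lowest median signal (35.0, against 37.5 to 43.6 on the others) and the lowest mean correlation with the other arrays (0.931, against 0.955 to 0.969), and its part in the dip was not tested. Over all 9380 probe sets considered, the median difference between 2 h and the mean of 0 h and 4 h was -0.10 log2 units, against -1.77 for the members. This difference was close to -0.10 in every band of signal, from -0.10 for mean signals of 60 to 100 to -0.11 for 200 to 400. Members made up 2.00% of the lowest band, 2.04% of that from 100 to 200, 1.87% of that from 200 to 400 and 1.39% of that above 400. With the arrays centred on 1 median, 121 of the 177 kept the full depth, and 133 did after quantile normalization, where the smallest depths of members were 0.72 and 0.80.

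**Figure D2:**
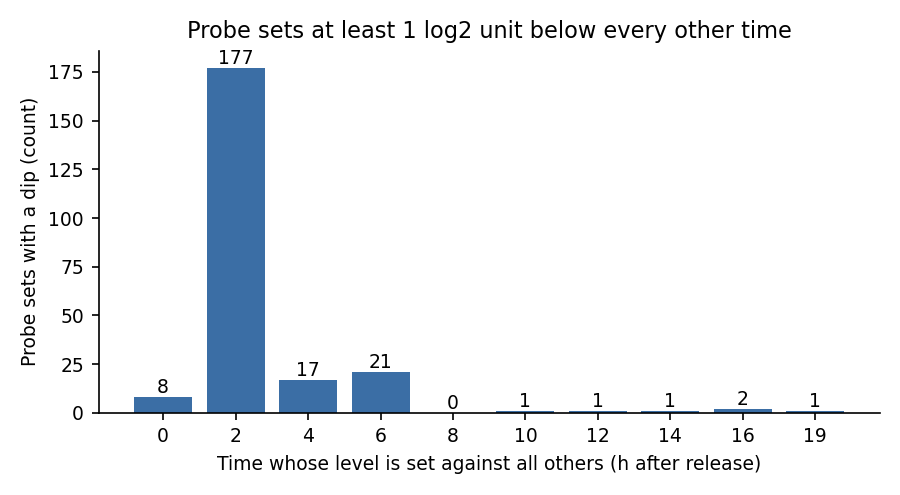
Number of probe sets whose level at the time named on the horizontal axis was at least 1 log2 unit below that of every other time. The bar at 2 h stands at 177, and the next highest, at 6 h, at 21.

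**Figure D3:**
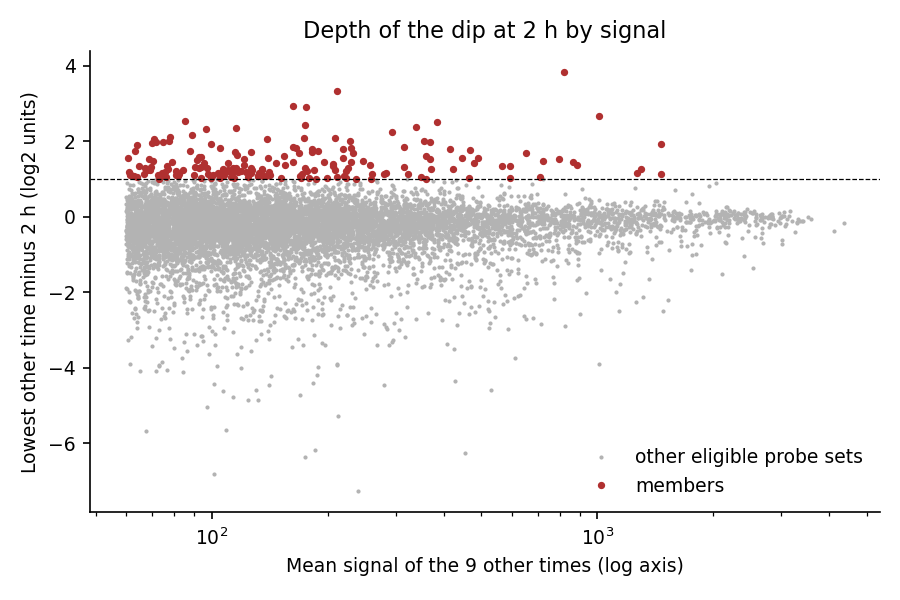
Depth of the dip at 2 h (lowest other time minus 2 h, log2 units) against the mean signal of the 9 other times on a log axis, for members (red) and the other probe sets considered (grey). The dashed line is the depth of 1 that chose the members, who spread over the range of mean signals from 60.5 to 1466.

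The limit of 1 cuts a continuous range. Just inside it lay AT2G07170 at 1.01, MAP1C at 1.02, and AT2G35470 and 1 probe set of AT5G54130 at 1.03. Just outside it lay AT3G51950, AT3G08980, SKU5 and AT5G25630, with depths from 0.99 to 1.00 that fell short of 1 before rounding. A further 429 probe sets had depths between 0.5 and 1, and 2 h was the lowest time for 2956 of the 9380, or 31.5%.

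Among the members with a gene name were several of the cell surface and wall. THE1, THESEUS1, a receptor-like kinase that reports on the state of the cell wall, stood at 105 at 0 h, then 25.4 at 2 h and 84.3 at 4 h, then at 92.9, 85.6, 99.9, 122, 146, 142 and 155 from 6 h to 19 h. RALFL33, a secreted peptide of the rapid alkalinisation factor family, whose peptides bind receptor kinases of the group that THE1 belongs to, stood at 283 at 0 h, then 76.7 at 2 h and 212 at 4 h, and between 211 and 239.6 from 6 h on. THE1 had its highest value at 19 h and RALFL33 at 0 h. Both are low at 2 h by the rule, and their courses were not alike at the end.

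EXLA1, expansin-like A1, of a family named for its likeness to wall-loosening expansins, was one of the members with the highest signal. It stood at 1577 at 0 h, 400.2 at 2 h, 1221 at 4 h, 897 at 6 h and 1455 at 8 h, and at 1193, 1009, 1459, 1296 and 1283 after that. The 2 h value is 2.24-fold under the next lowest, that of 6 h. AT2G41480, which the gene table also lists as PRX25, peroxidase 25, had the deepest dip of the named members above the floor, 5.74-fold under its lowest other time. Its signal was 459.5 at 0 h, then 53.2 at 2 h and 487 at 4 h, and 305 to 432 from 6 h to 19 h. CSLC12, a cellulose-synthase-like protein of the C family, which makes the glucan backbone of xyloglucan, stood at 85.9, 25.3 and 53.4 at 0, 2 and 4 h and reached 112 at 14 h. Its level at 4 h was thus still the lowest of the other times.

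These wall genes were set beside the other wall genes on the array, found by words in their names (expansin, xyloglucan, cellulose and the like). Of 17 such probe sets with enough signal, EXLA1 and CSLC12 were members (1.89% of all considered were), and 11 had their lowest value at 2 h (31.5% of all considered did), with a median depth of 0.27. The list holds only genes whose listed name carries such a word. All 5 cellulose-synthase-like genes among them were lowest at 2 h, with depths of 1.08 for CSLC12, 0.50 for CSLC5, 0.50 for CSLD2, 0.32 for CSLC04 and 0.10 for CSLC6. CSLC04, for example, stood at 344 at 0 h, then 114 at 2 h and 151 at 4 h. From 6 h to 19 h it stood between 143 and 188, so it did not return to its 0 h level. The list did not move as 1 group. EXPA4, an expansin, stood at 1105 at 0 h, then 1964 at 2 h and 702 at 4 h, with its highest value at the very time at which EXLA1 had its lowest. Among 19 probe sets named for peroxidases and redox proteins, PRX25 was the single member and 2 were lowest at 2 h, against the same shares of 1.89% and 31.5%. This list too was found by words in listed names, so a peroxidase without such a name is not counted. Another peroxidase, PRX52, had a depth of -1.90, which means that its level at 2 h was above its lowest other time by that much.

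Other named members act in signalling and gene control. RTE1, which acts with an ethylene receptor to repress ethylene responses, stood at 256 at 0 h, then 66.7 at 2 h and 292 at 4 h, and between 169 and 203 from 6 h on. DOR, the drought tolerance repressor, stood at 47.2, 18.8 and 52.4 and reached 106 at 19 h. TCP15, a transcription factor of the TCP family, stood at 123 at 0 h, 39.8 at 2 h, 158 at 4 h and 208 at 19 h. LSH9, of the plant LSH family, stood at 113 at 0 h, then 23.8 at 2 h and 193 at 4 h, and then between 100.3 and 166. RTE1 and LSH9 were highest at 4 h, directly after the dip, while DOR and TCP15 were highest at 19 h.

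The remaining members with a gene name included genes of metabolism, protein maturation and traffic. CHLM, the methyltransferase that acts on magnesium-protoporphyrin in chlorophyll synthesis, stood at 60.6, 28.3 and 65.1 at 0, 2 and 4 h and at up to 89.0 later. MAP1C, a methionine aminopeptidase, which takes the first methionine off new proteins, stood at 69.9, 34.2 and 69.4 and at up to 119. ARLA1A, a small GTPase of the ADP-ribosylation factor-like group, stood at 111, 25.6 and 99.6 and was highest at 6 h with 149.7. SETH6 had a signal of 1.26 at 2 h, under the floor of 12, against 46.6 to 95.2 at the other times, so that its depth was at least 1.96.

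Of these 13, CHLM, CSLC12 and MAP1C had depths of 0.75 to 0.98 after median centring, after quantile normalization and on the scale of log2(signal + 16), and thus fell outside the rule. EXLA1 did so with median centring alone (0.90) and DOR on the log2(signal + 16) scale alone (0.86). The other 8 kept a depth over 1 in each of these settings, as did 93 of the 177 members in all. Among the 89 members that name 1 gene, 48 did. Of the members named by locus code, AT1G09660, AT2G07170, AT2G35470, AT3G17120, AT4G27280 and 1 probe set of AT5G54130 fell outside the rule in each setting. AT4G30020 (0.76) and AT1G28400 (0.92) did so with median centring alone. AT4G18630 (0.77) and AT5G48310 (0.67) did so on the log2(signal + 16) scale alone.

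**Figure D4:**
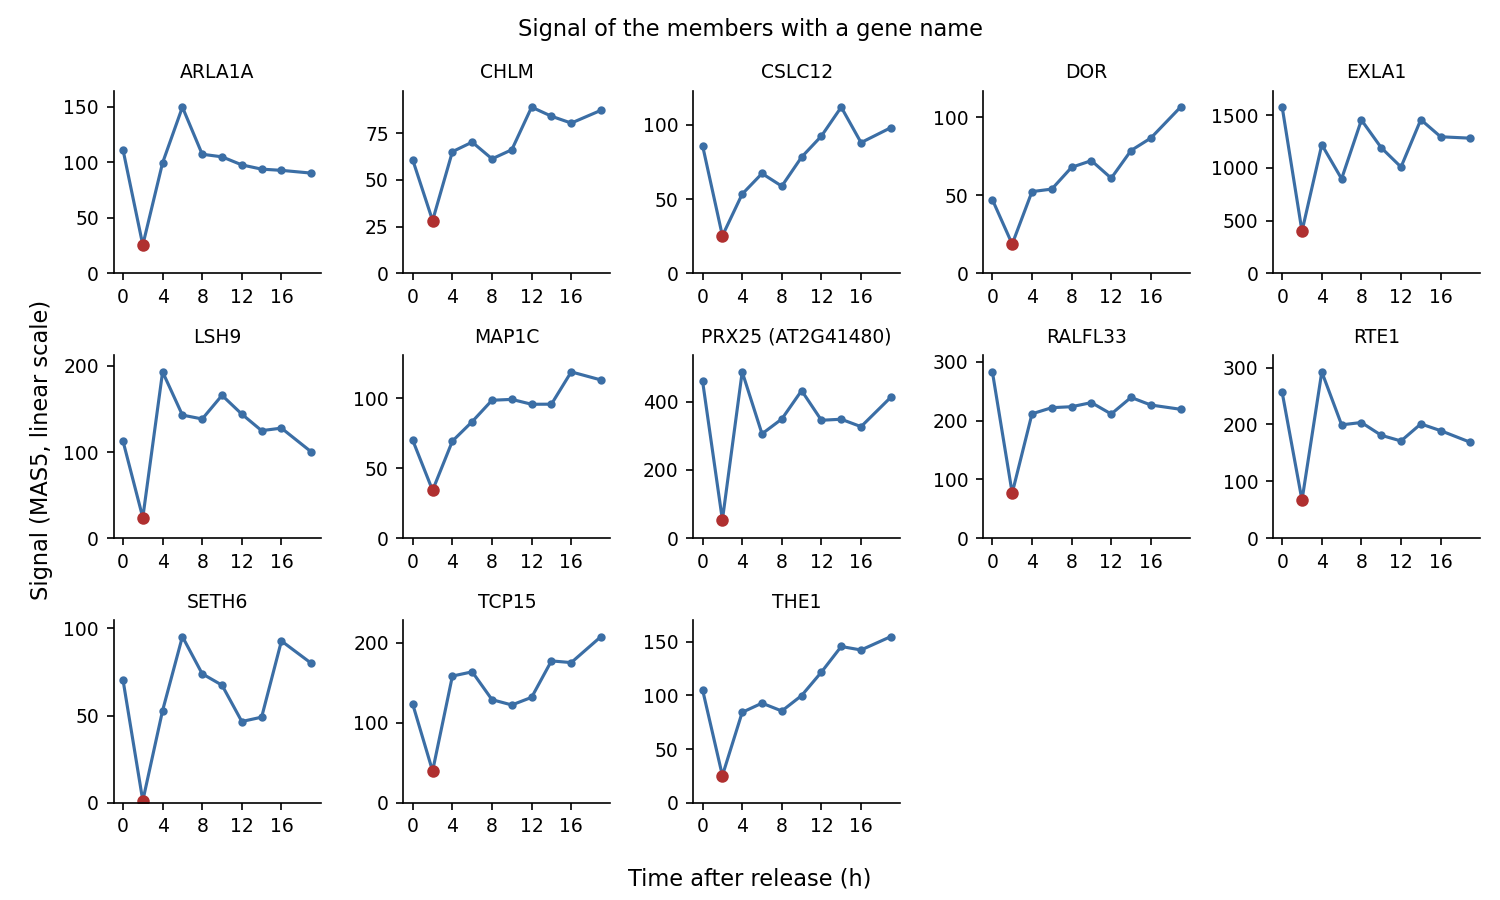
Signal (MAS5, linear scale from 0) of the 13 members with a gene name at each of the 10 times, with the 2 h value in red. In each panel the red point is the lowest, as the rule requires. The level at 4 h is close to that at 0 h in some (MAP1C, PRX25) and short of it in others (CSLC12, EXLA1).

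Most members with 1 gene are listed by locus code without a symbol. The strongest of these was AT3G51670, with 1323 at 0 h, then 335 at 2 h and 1591 at 4 h, and 1284 to 1740.3 from 6 h to 19 h. AT1G28400 stood at 1276, 578 and 1279.5 at 0, 2 and 4 h and at 2021 at 19 h, and AT5G49280 at 1042, 239 and 655. In AT3G51670 the 2 h value was 3.84-fold under the lowest other time, while that of AT1G28400 was 2.21-fold under it. AT2G44830 varied little outside 2 h, with a fitted range of 0.22 in the test described further on. It had 415 at 0 h, 122 at 2 h, 525 at 4 h and 448 to 496 from 6 h on. AT2G28660 stood at 448, 55.1 and 535 at 0, 2 and 4 h and was lower at each later time, down to 220.1 at 19 h.

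Further strong members returned to different levels. AT1G51570 had 632 at 0 h, 245 at 2 h and 817 at 4 h and reached 1099 at 6 h, while AT2G05920 had 399, 125 and 319.7 and reached 835 at 12 h. AT4G30020 had 742, 288 and 733 at these times and 595 to 811 later, and AT2G04280 had 552, 217 and 560.0 and 551 to 654 later. In the first pair the later levels were above that of 0 h, and in the second pair they lay on both sides of it. Among the deepest dips above the floor, AT4G22730 had 129.6, 29.4 and 173 at 0, 2 and 4 h (depth 1.85), AT2G01630 had 100.1, 28.9 and 141 (1.79) and AT1G27200 had 71.5, 12.1 and 40.9 (1.74). AT1G27200 was close to the floor at 2 h, and its level at 4 h was well below that at 0 h and at 6 h (76.9).

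Several dips went under the floor of 12 that was set for the rule. AT4G01410 stood at 223 at 0 h, then 4.46 at 2 h and 244 at 4 h, and at 92.0 at its lowest other time, 12 h. Its depth was therefore at least 2.94. AT5G62350 stood at 244, 11.9 and 189.8 and at 496 at 19 h, with a depth of at least 3.32. AT4G38660, AT5G67200, AT3G62860, AT4G14360, AT3G25130 and AT4G36180 had signals between 2.22 and 11.6 at 2 h and depths of at least 1.99 to 2.32. In all 8 the signal was 47.7 or more at every other time.

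For 2 genes a separate probe set gives a reading of the same transcript with other probes. Both probe sets of AT5G54130 were members, with 108, 52.7 and 126 at 0, 2 and 4 h on one and 119, 38.5 and 93.5 on the other. For AT1G09660 one was a member, with 82.2, 38.2 and 108, and the other, with 121, 66.4 and 141, fell short of the rule at a depth of 0.86. In both genes the readings share the low value at 2 h, though all come from the same RNA sample and array. After median centring, quantile normalization and on the log2(signal + 16) scale, the first probe set of AT5G54130 had depths of 0.87, 0.87 and 0.85. That of the member of AT1G09660 was 0.94, 0.91 and 0.86, so both fell outside the rule. The second probe set of AT5G54130 kept to it, with 1.18, 1.14 and 1.01.

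The members were next compared at 4 h. Their 4 h level lay within 0.5 log2 units of the 0 h level in 125 of 177 (70.6%), against 72.2% of the other probe sets considered. It was lower than at 0 h by 0.5 or more in 36 (20.3%, against 1378 of 9203 others) and higher by as much in 16 (9.04%, against 12.9%). Against the mean of 6 to 19 h, the 4 h level had a median difference of -0.13 log2 units in members and -0.00 in the others. After 2 h, the next lowest time was 4 h in 46 members (26.0%, against 14.9% of the others) and 0 h in 34 (19.2%, against 27.1%). These shares depend in part on the rule and are given without a test. Examples of a low 4 h level are AT3G53190, with 395 at 0 h, 78.4 at 2 h, 231 at 4 h and 448 at 6 h, and AT4G27280, with 99.4, 24.0, 50.8 and 97.9. Examples of a high one are AT1G54200, with 130.2, 39.0 and 245 at 0, 2 and 4 h, and AT5G43310, with 283, 91.8 and 481.

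The question of whether the members also changed at other times was asked with the 2 h array left out. The rule had also used the 9 other arrays, through their mean signal and their lowest level. The calls are therefore not independent of the choice of members. Shares of members are set beside those of all probe sets as a description only. In limma, a smooth curve of time was fitted to the 9 other arrays, and the fitted range is the highest minus the lowest point of that curve in log2 units. Of the 177 members, all of which passed the filter on low signal, 47 were called (26.6%). Over all 13647 probe sets tested 13.5% were called, and over those with enough signal for the rule 17.1%. At an unadjusted p under 0.05 there were 93 members and 4374 probe sets. The median fitted range was 0.69 for the members and 0.59 for all probe sets tested. The called members had fitted ranges from 0.67 to 4.39, with a median of 1.16 and 31 over 1. Leaving out a further array took the count of 47 to 29 (6 h), 28 (10 h) or 31 (19 h). Dropping the filter on low signal took it to 7, and dropping the mean trend in the variance to 20. The calls over all probe sets fell as well. From 1844 they went to 1084, 1118 and 1446 without the 6, 10 and 19 h arrays. They went to 244 of 22746 without the filter and to 810 without the mean trend.

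The 47 had no common course outside 2 h. They were highest at 14, 16 or 19 h in 24 cases, 19 of these at 19 h, at 6 to 12 h in 10 cases and at 0 or 4 h in 13. Of the 130 not called, 39 were highest at 14 to 19 h, 54 at 6 to 12 h and 37 at 0 or 4 h. Outside 2 h, 17.5% of all members were highest at 19 h, against 12.4% of the other probe sets considered. The times of the highest value were not counted for called probe sets outside the members. A late high can therefore not be taken as particular to the called members. The 3 called members with a symbol, THE1, TCP15 and DOR, were all highest at 19 h. THE1 had a fitted range of 0.82 (adjusted p = 0.0176; 0.0154 to 0.0579 over alternatives) and lost its call without the 19 h array (0.0554) and without the filter (0.0579). TCP15 (fitted range 0.76, adjusted p = 0.0310; 0.0257 to 0.166) lost it in 12 of 19 alternatives, among them every left-out array other than 14 h (0.0534 to 0.135). DOR (1.21, adjusted p = 0.0371; 0.0306 to 0.136) lost it in 13 of 19, among them every left-out array other than 12 h (0.0570 to 0.136) and median centring (0.0540) or quantile normalization (0.0524).

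The largest change outside 2 h was that of AT5G48310, which stood at 34.2 at 0 h, then 9.87 at 2 h and 25.1 at 4 h, and then at 42.5, 85.2, 446, 512, 350.3, 258 and 144 from 6 h to 19 h. Its fitted range was 4.39 (adjusted p = 0.000119; 4.03e-05 to 0.0443 over alternatives), with its high values at 10 and 12 h. Its dip at 2 h, from an already low level, was at least 1.06 and is small beside that range. AT1G64450 stood at 28.5 at 0 h, 4.01 at 2 h, 66.4 at 4 h and 118 at 8 h (fitted range 2.04, adjusted p = 0.00125; 0.00102 to 0.0613), and lost its call without the 0 h array, where its range was 0.86 (0.0613). AT2G28660, which was lower at later times, had a fitted range of 1.21 and kept its call in all 19 alternatives (adjusted p = 0.000964; 0.000726 to 0.0358).

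Most of the next calls named here were highest at 16 or 19 h. AT5G62350 had a fitted range of 1.90 (adjusted p = 0.00118; 0.000586 to 0.0548), which was 0.95 without the 19 h array, and lost its call without the filter (0.0548). AT3G15720 stood at 69.8 at 6 h and 249 at 19 h (1.59, adjusted p = 0.0104; 0.00464 to 0.132), and AT4G27280 at 50.8 at 4 h and 202 at 16 h (1.62, adjusted p = 0.0151; 0.00248 to 0.182). Both lost their calls without the filter (0.132 and 0.182), and AT4G27280 also without a mean trend (0.0630). AT4G18630 had 43.0 at 4 h and 154 at 19 h (fitted range 1.65, adjusted p = 0.00996; 0.00508 to 0.0827) and AT3G17120 had 86.7 at 8 h and 268 at 19 h (fitted range 1.42, adjusted p = 0.0149; 0.0107 to 0.233). These calls were lost without the 19 h array (0.0724 and 0.233, where the range of AT3G17120 was 0.64) and without the filter (0.0827 and 0.141), and that of AT3G17120 also without a mean trend (0.0570). AT5G40150 had 98.9 at 0 h and 236 at 19 h (fitted range 1.28, adjusted p = 0.0121; 0.0103 to 0.124) and lost its call without the 0 h array (0.0583, range 0.85), the filter (0.124) or a mean trend (0.0535). AT4G01410, highest at 4 h, had a fitted range of 1.24 (adjusted p = 0.00660; 0.00503 to 0.0916) and lost its call without the filter (0.0916).

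The other 6 called members named here also lost their calls in some alternatives. AT2G01630, highest at 14 h with 256, had a fitted range of 1.28 (adjusted p = 0.0177; 0.0160 to 0.197) and lost its call without the 0 h array (0.197), where the range was 0.72, and also with no filter (0.138) or no mean trend (0.0670). AT2G05920, highest at 12 h (1.12, adjusted p = 0.0232; 0.00462 to 0.215), lost it without the 10, 12 or 14 h array (0.0619 to 0.0703), the filter (0.215) or a mean trend (0.0946). AT1G19835, highest at 0 h with 334 and lowest outside 2 h at 19 h with 161 (1.04, adjusted p = 0.0215; 0.0181 to 0.133), lost it without 0, 6, 10 or 19 h (0.0546 to 0.133), the filter (0.0857) or a mean trend (0.0777), and its range was 0.59 without 0 h. AT5G43310, highest at 6 h with 503 (0.78, adjusted p = 0.0181; 0.0158 to 0.194), lost it without 0, 4 or 6 h (0.0503 to 0.194), the filter (0.0994) or a mean trend (0.0806), and with 3 spline terms (0.188). AT1G63420, highest at 6 h with 232, lost its call in 12 of 19 alternatives, and AT1G28400, highest at 19 h, in 13 of 19. Without the 19 h array the fitted range of AT1G28400 was 0.31, against 0.69 with it.

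**Figure D5:**
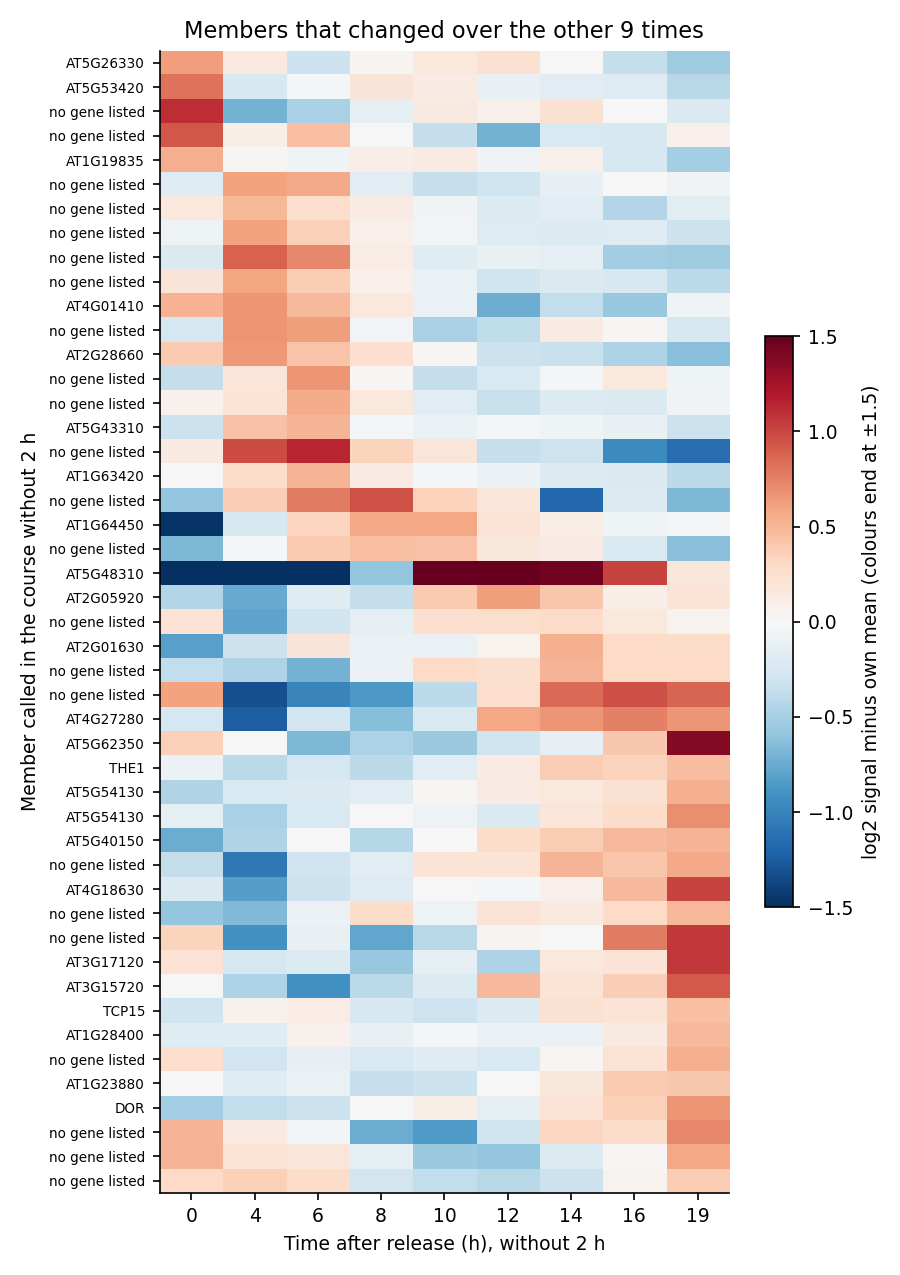
The 47 members called in the course without the 2 h array, 1 row each, ordered by the time of their highest value, with columns for the 9 other times. Colour is the log2 signal minus the member's own mean over these times, and colours end at ±1.5; 19 rows are highest at 19 h and 13 at 0 or 4 h.

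Windows of time were compared as well, again without 2 h and on arrays that the rule had also used. The late window (14, 16 and 19 h) was set against the middle one (6, 8, 10 and 12 h), and 0 members and 0% of all probe sets were called in limma. At an unadjusted p under 0.05 there were 35 of 177 members and 978 of 13647 probe sets, and the median difference was 0.05 for members and 0.01 for all. THE1 was higher in the late window by 0.57 (SE 0.15) and TCP15 by 0.45 (SE 0.14), neither of which was called. The middle window was then set against 0 and 4 h, to ask how the members' level after the dip stood to that on either side of it. Here 0 members and 0.132% of all probe sets were called. At an unadjusted p under 0.05 there were 40 members and 1986 probe sets, with a median difference of 0.04 in each. The number of members called was 10 without the 4 h array, 2 without 0 h and 1 without 6 h, and the total of 18 moved to 1102, 92 and 207. RTE1, with a difference of -0.54 (SE 0.13), and CSLC12, with 0.11 (SE 0.23), were not called.

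The members with 1 gene lay on all 5 nuclear chromosomes. Chromosomes 1 to 5 held 19.1%, 19.1%, 18.0%, 16.9% and 27.0% of them, against 24.5%, 15.2%, 20.8%, 14.1% and 25.3% of all genes with enough signal, and these shares were not tested. Their median gene length was 2719 bases, against 2412.5 for the others, with quartiles of 1894 and 3348 against 1785 and 3367. LSH9 and AT4G18630, which lie 3 places apart in the order of genes, were the single pair of members within 15 places of each other. The fixed lists for sugar starvation, circadian clock, nuclear photosynthesis and G2 and mitosis held 18, 11, 18 and 10 genes. Only 1, 1, 5 and 5 probe sets could be matched to them in the annotation used. Of these, 1, 1, 4 and 2 had enough signal and 0 were members. GI, the clock gene GIGANTEA, was lowest at 2 h with a depth of 0.51. The lists of auxin and cytokinin response genes, with 12 and 5 genes, were matched to 3 and 1 probe sets, of which 0 had enough signal. Listed genes without a matched probe set were not read, so these counts say little about the lists as a whole.

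Markers of other cell types could be read in part. Of 16 markers of photosynthetic cells, 2 were named on the array, LHCB4.1 and RCA, with a summed signal of 183 at 0 h, then 154 at 2 h and 262 at 4 h. Both were lowest at 2 h, with depths of 0.10 and 0.31. Of 5 root hair markers, EXPA7 and EXPA18 were named and neither had a mean signal of 60. AUR1 and BUBR1, of 6 markers of dividing cells, had a summed signal of 104 at 2 h and 651 at 10 h. The xylem and seed markers had 0 probe sets named. The part of cell types in the dip was not tested.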

How the data were processed

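Total RNA of 10 samples was measured on 10 ATH1 arrays, 1 for each time. The deposited values are intensity values (signals) per probe set on a linear scale, made by the authors with MAS5 per the submitters' processing notes, with the version not given in the sources used here. They had been scaled before deposit, since the 2% trimmed means lay between 99.2 and 99.4. Gene names came from the platform annotation, updated from a RefSeq table (TAIR10.1) used for names and gene order only. All 89 members with 1 gene matched it.

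The rule was applied to the deposited signals. For tests, the 9 arrays were brought to 1 common trimmed mean, a floor was put at the 25th percentile (12.3), and probe sets with a mean signal above the 40th percentile (26.7) were kept, 13647 in all. With R 4.3.3 and limma 3.58.1, a natural cubic spline with 4 degrees of freedom and window contrasts were fitted (eBayes with a mean trend, Benjamini-Hochberg over all probe sets tested, called under 0.05). The fits were also run on simulated data with independent noise of a smaller spread than measured and changes shaped like the model. That run tries the code and does not speak for the calls made here. Samples of a window are different times of 1 culture, so a p-value here speaks only for the spread among these arrays. Alternatives covered scaling, floor, filter, moderation, spline, windows and each array left out.

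The members and lists were chosen with earlier results of these data known. Named were the members with a symbol, the 15 deepest above the floor, the 10 strongest, the 10 lowest adjusted p in the course, members beside the threshold and list members. Members under the floor at 2 h were named after their values were seen, as were the examples given for the 4 h level and the probe sets of the same gene. No sequences were used here. The number of arrays limits the precision.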

Additional observations from a re-analysis of the deposited data

How the results depend on the processing

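The number of members was 177 as reported, 101 on the scale of log2(signal + 16), 102 with a mean signal of 120 or more and 61 with a depth of 1.5. It lay between 176 and 229 when 1 of the other arrays was left out of the rule, and 121, 135, 156, 177, 181 and 223 under the other settings. The course without 2 h called 1844 probe sets, 244 with no filter on low signal, 810 with no mean trend and 1084 to 1751 with 1 more array left out, with the lowest counts without 6 h (1084) and 10 h (1118). Its count of 47 members was 7, 20 and 28 to 44 in these settings. Late against middle, with 0 calls, had 1 with no filter, 0 to 0 with 1 array left out (584 to 1449 at an unadjusted p under 0.05) and 0 members in each setting. Middle against 0 and 4 h, with 18 calls, had 31 on the log2(signal + 16) scale, 0 with no filter (2256 at an unadjusted p under 0.05), 1 with no mean trend, 139 with 6 h moved to the earlier window (1 member), 0 with the arrays of these windows alone (1511 at an unadjusted p under 0.05), and 0 (without 10 h; 1551 at an unadjusted p under 0.05) to 1102 (without 4 h) with 1 array left out (0 to 10 members). Leaving out 0 h or 4 h leaves 1 array in that window, which is assumed to vary like the others. A change of sign while called could not be seen, because a fitted range has no sign and no member was called in the window contrasts as reported. The cause of these moves was not tested.

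No paired analysis was possible because every time has 1 sample and all carry the same replicate number. With 1 array at 2 h, the dip has no replicate check, and signals under 12 have no order.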

Other observations

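Wall genes outside the members showed their own courses over the 9 other times. In the course without 2 h, 10 of the 17 wall probe sets were called in limma, against 13.5% of all tested and 17.1% of those with enough signal for the rule. The count was 1 with no filter on low signal, 4 with no mean trend and 7 to 11 in the other alternatives. Over all probe sets, 244 of 22746 were called with no filter and 810 of 13647 with no mean trend. EXPA15, an expansin, stood at 64.6 at 4 h and 242 at 19 h (fitted range 1.91, adjusted p = 0.000664; 0.000478 to 0.0465 over 19 alternatives), and GH9C2, an endoglucanase, at 137 at 4 h and 933 at 19 h (2.34, adjusted p = 0.00526; 0.000410 to 0.132, its call lost in 1 of 19). Both had low values at 2 h, 46.0 and 140.0, that lay beside low values at 4 h and so gave no dip under the rule. The 2 members among the 17, EXLA1 and CSLC12, were not called (adjusted p = 0.569 and 0.0782).

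Several wall genes were low at 2 h and still well below their 0 h level at 4 h. EXLA3 stood at 452 at 0 h, 125 at 2 h, 158 at 4 h and 117 at 6 h, against 1577, 400.2, 1221 and 897 for EXLA1 of the same family. GH9B7 stood at 299, 139 and 135 at 0, 2 and 4 h and CSLD2 at 188, 54.3 and 79.1. From 6 h to 19 h EXLA3 reached at most 378 and GH9B7 257, both short of their 0 h level, while CSLD2 reached 190.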
